A study of Mus musculus with 4 samples.

Results

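The class I and II histone deacetylases are enzymes that take acetyl groups off the lysines of histones and other proteins. The 10 genes Hdac1 to Hdac10 were read from the probe sets annotated to 1 of these symbols alone, averaged per symbol, and all 10 were found among 18820 genes measured. Hdac1 had 2 probe sets and each of the other members 1. Liver RNA of male C57Bl/6J mice, 16 to 17 weeks of age, was pooled into 4 samples, and each pool was hybridised to 1 array. Through a permanent cecum catheter, conscious mice had received the sodium salt of [1-13C]acetate (6 mice), of [2-13C]propionate (6 mice) or of [2,4-13C2]butyrate (4 mice), each at 0.3 M, or, as the control, phosphate-buffered saline (6 mice). The infusion ran at 0.2 ml/h for 6 h, which gave 2.4 mmol/h/kg of each acid. All mice, controls included, carried the catheter, had been on a semi-synthetic diet with palm oil for 6 weeks and had fasted on the morning of the infusion. There was no second pool of any group, so no difference below has a replicate check, an error or a p-value, and the butyrate pool rested on fewer mice.

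Class I enzymes (Hdac1, Hdac2, Hdac3 and Hdac8) work mostly in the nucleus, where Hdac1 to Hdac3 are the catalytic subunits of corepressor complexes that keep genes silent. Class IIa enzymes (Hdac4, Hdac5, Hdac7 and Hdac9) shuttle between cytoplasm and nucleus under the control of kinases, and class IIb enzymes (Hdac6 and Hdac10) are mainly cytoplasmic. Butyrate, and more weakly propionate, are known inhibitors of class I and some class II enzymes in cultured cells, while the array measures the enzymes' mRNA and not their activity. In the liver, Hdac3 represses genes of lipid metabolism through the daily cycle, and class IIa enzymes enter the hepatocyte nucleus during fasting and take part in the control of gluconeogenic genes.

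Promoters of the members with the largest differences are given first, to show the start regions of the genes named most below. RefSeq promoter windows span 250 bases before to 50 after a gene's start in the build GRCm38.p6. They are described here for 7 of the 10 members, with 11 windows in all. Hdac1 and Hdac10 had no window, and windows of Hdac3 were left out of the counts. Each of the 4 windows below is printed 5′ to 3′ along the gene's strand, the minus strand in all 4 cases. Capitals mark matches to either of 2 motifs, read on both strands. The first is the GC box, which here means the letters GGGCGG. The second motif searched was the core of the TATA box, for which the letters were TATAAA. Hdac9 has 2 windows, at chr12:34917046-34917345 and chr12:34528840-34529139, Hdac6 lies at chrX:7947840-7948139 and Hdac8 at chrX:102505109-102505408.
Hdac9 upstream start: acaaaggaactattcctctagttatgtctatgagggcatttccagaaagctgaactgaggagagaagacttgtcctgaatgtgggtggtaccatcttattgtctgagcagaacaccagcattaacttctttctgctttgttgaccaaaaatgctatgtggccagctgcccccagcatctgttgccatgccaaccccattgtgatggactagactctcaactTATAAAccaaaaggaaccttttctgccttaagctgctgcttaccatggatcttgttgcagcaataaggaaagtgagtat
Hdac9 downstream start: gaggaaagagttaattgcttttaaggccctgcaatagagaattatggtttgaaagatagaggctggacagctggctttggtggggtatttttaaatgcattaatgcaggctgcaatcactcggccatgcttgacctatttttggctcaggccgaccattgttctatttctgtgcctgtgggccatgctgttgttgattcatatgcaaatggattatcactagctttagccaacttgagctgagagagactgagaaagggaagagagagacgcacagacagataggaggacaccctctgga
Hdac6: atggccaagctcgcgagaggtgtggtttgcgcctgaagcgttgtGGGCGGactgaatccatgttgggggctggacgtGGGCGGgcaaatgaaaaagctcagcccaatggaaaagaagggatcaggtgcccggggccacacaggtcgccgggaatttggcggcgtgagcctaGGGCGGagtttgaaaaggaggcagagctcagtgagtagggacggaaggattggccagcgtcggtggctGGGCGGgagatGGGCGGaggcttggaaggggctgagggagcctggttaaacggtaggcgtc
Hdac8: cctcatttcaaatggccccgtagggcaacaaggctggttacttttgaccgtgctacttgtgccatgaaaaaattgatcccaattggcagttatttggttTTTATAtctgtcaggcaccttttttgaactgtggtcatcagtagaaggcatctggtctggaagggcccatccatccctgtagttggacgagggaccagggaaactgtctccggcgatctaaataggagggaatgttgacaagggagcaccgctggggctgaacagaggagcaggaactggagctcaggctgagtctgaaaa

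The Hdac6 window was rich in GC boxes and CpG, and the Hdac9 windows were poor in both. Hdac6 had 5 GC boxes, 20 CpG and a GC content of 62%. The Hdac9 windows had no GC box, 0 and 3 CpG and a GC content of 44% and 45.3%, against a median of 7 CpG and 52.7% over 32851 windows of 300 bases. Hdac8 had no GC box, 6 CpG and 1 match to TATAAA, read on the opposite strand. The upstream Hdac9 window held 1 match to TATAAA too. At least 1 GC box stood in 5 of the 11 windows kept for the members (45.5%) and in 35.7% of all windows. TATAAA occurred in 2 of the 11 windows kept and in 13.6% of all windows. Windows of Hdac3 are not among the 11. A match is a description of the letters and does not show that a factor binds there.

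Levels of all 10 members lay close together across the 4 pools, and Hdac9 with butyrate was the single difference from control that reached 1.2-fold, a log2 ratio of 0.26. Values are log2 expression values from RMA, a method that subtracts background, equalises distributions between arrays and joins the probes of each set, so a difference of 2 values is a log2 ratio. The number of members at least 1.2-fold from control, either way, was 0 of 10 with acetate, 0 of 10 with propionate and 1 of 10 with butyrate. Over all 18820 genes the same fold was reached by 12.2% with acetate, 13.3% with propionate and 11.9% with butyrate. No member differed by 1.5-fold, a fold that 1.19%, 1.26% and 1.34% of all genes reached with acetate, propionate and butyrate. The counts of members were near what these shares of 10 genes come to. The median log2 ratio of the 10 members was -0.059 with acetate, 0.015 with propionate and 0.022 with butyrate, and over all genes it was 0.0020, -0.0075 and -0.0029. The 3 acid comparisons share the control pool.

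**Figure D1:**
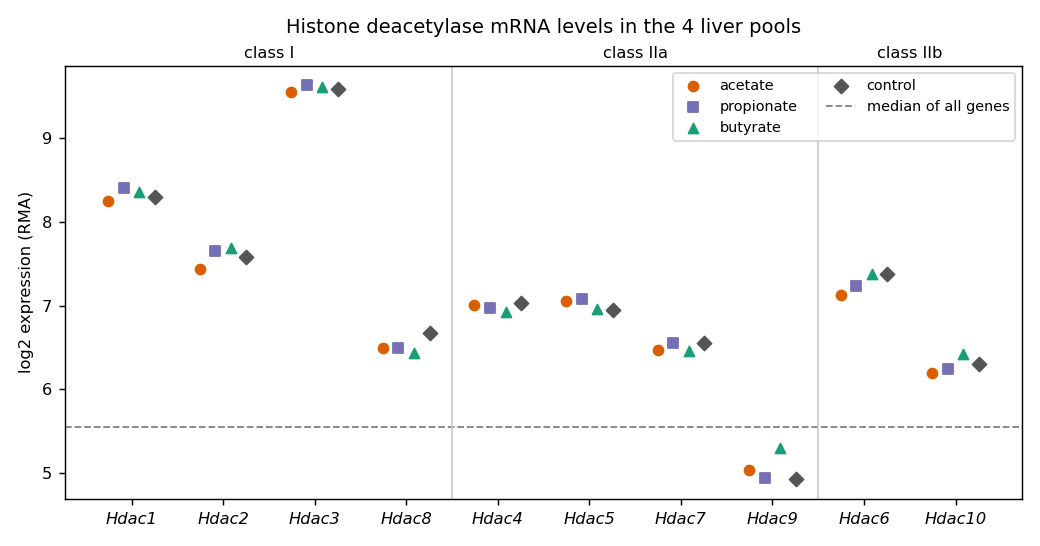
Log2 expression (RMA) of the 10 members in the acetate, propionate, butyrate and control pools, 1 array each, grouped by class, with a dashed line at 5.55, the median of all genes' mean levels. Points of 1 gene can be compared across pools but not between genes, since probe sets differ in brightness. The points of Hdac3 span 0.074 and those of Hdac9, which lie below the line, span 0.37.

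A mean level of 5.55, which divides all genes into equal parts, was reached by 9 members and missed by Hdac9. Among the 9 members at or above that level, 0 differed by 1.2-fold from control with any acid. Over the 9410 genes at or above it, 9.91% did so with acetate, 10.2% with propionate and 8.6% with butyrate. Sensory receptor genes, which liver does not use, gave a view of the array's scatter at low signal. Their median level was 2.84 and 95% of them had a mean under 4.14, lower than that of any member. The scatter at the members' levels may differ. Over 1206 such genes the SD of log2 ratios across genes was 0.16 with acetate, 0.18 with propionate and 0.17 with butyrate, which is a spread over genes and not over replicates.

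Class I members differed from control by less than 1.2-fold with every acid. Hdac1, a catalytic subunit of the Sin3, NuRD and CoREST complexes, had log2 levels of 8.26, 8.41 and 8.35 in the acetate, propionate and butyrate pools and 8.30 in the control pool. Acetate lay lowest and propionate highest, and the log2 ratios to control were -0.040, 0.11 and 0.057. The probe sets of Hdac1 differed by little in these ratios, with -0.024 and -0.057 for acetate, 0.11 in both for propionate and 0.057 in both for butyrate. RefSeq also lists a pseudogene, Hdac1-ps, so the parent gene and the copy may not be told apart by short probes.

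Hdac2, the close paralog of Hdac1 in the same complexes, stood at 7.43, 7.66 and 7.69 with acetate, propionate and butyrate and at 7.58 in control. The acetate pool was the lowest and the other pools lay within a narrower band. The log2 ratios to control were -0.15, 0.076 and 0.11. Of 2305 genes with a mean level within 0.5 of that of Hdac2, 28.9% had a range over the pools at least as large as its 0.26. Cell cycle genes, with which Hdac1 and Hdac2 are often co-expressed, had medians of 0.31, 0.30 and 0.14 with acetate, propionate and butyrate over 20 genes, and of 0.37, 0.49 and 0.072 over the 9 with mean levels of at least 5.55. Their part in the Hdac1 and Hdac2 values was not tested.

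Hdac3, the enzyme of the NCoR complex, had the smallest range of the 10 members. It stood at 9.56, 9.64 and 9.62 with acetate, propionate and butyrate and at 9.59 in control. The log2 ratios to control were -0.027, 0.047 and 0.028, and 86.0% of 1046 genes of like level had a range at least as large as its 0.074.

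Hdac8, a class I enzyme that acts outside these complexes and deacetylates the cohesin subunit Smc3, lay below control in all 3 acid pools. It stood at 6.50, 6.50 and 6.44 with acetate, propionate and butyrate and at 6.68 in control. The acid pools kept together, with a log2 ratio of -0.057 for butyrate over acetate as the widest gap among them, and the control pool was the highest. The log2 ratios of -0.18, -0.18 and -0.24 correspond to levels 1.13-fold, 1.13-fold and 1.18-fold lower. Because these ratios share the control pool, a high value in that 1 array would lower all 3 at once. Each acid pool set against the average of the other 3 pools gave smaller values for Hdac8, of -0.041 with acetate, -0.041 with propionate and -0.12 with butyrate. That average includes the other acid pools, which stood near the same level, so smaller values had to follow. They cannot tell a high control array from a lower level with all 3 acids. Pancreatic acinar markers, from tissue close to the liver, also lay below control in all 3 acid pools, in 9 of 9 cases each, with medians of -0.85, -0.63 and -0.33, and their part in the Hdac8 values was not tested. Of 2253 genes of like level, 46.4% had a range at least as large.

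**Figure D2:**
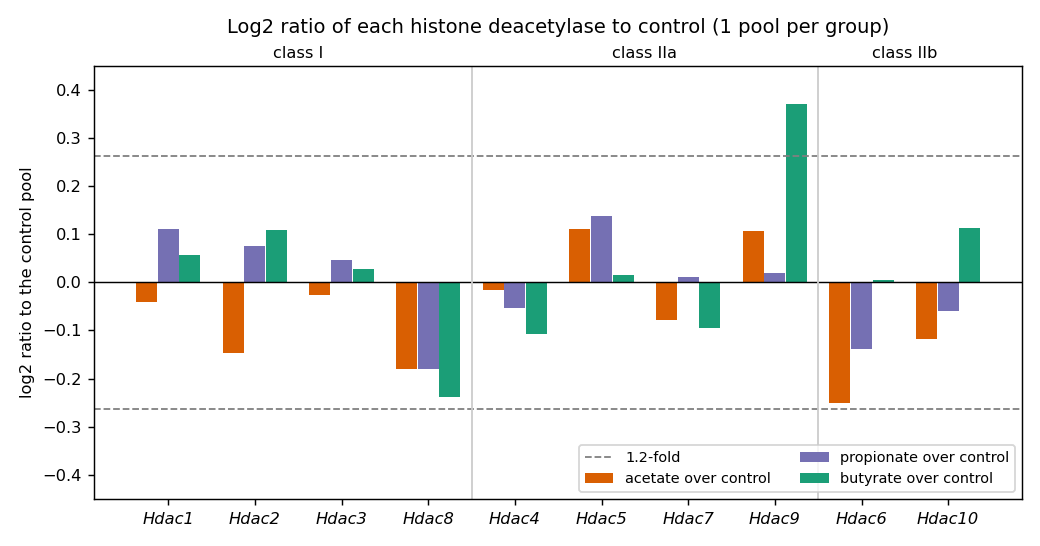
Log2 ratio of each member to the control pool, as bars for acetate, propionate and butyrate from left to right, with dashed lines at 1.2-fold either way. The Hdac9 bar for butyrate, at 0.37, is the only one past a line, and the Hdac8 bars are below 0 with all 3 acids.

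Among class IIa members, which bind MEF2 transcription factors and repress their target genes, Hdac9 differed the most. Hdac9 stood at 5.03, 4.94 and 5.29 with acetate, propionate and butyrate and at 4.92 in control. The butyrate pool was high, and the other 3 pools lay within 0.11 of one another. Its log2 ratio to control was 0.37 with butyrate (1.29-fold), 0.11 with acetate and 0.018 with propionate. All 4 values were below the level of 5.55, where ratios are less exact, and above the 4.14 under which 95% of sensory receptor genes had their mean. A range as large as that of Hdac9 was seen in 30.3% of 2380 genes of like level.

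Hdac4 and Hdac5 are the class IIa enzymes best known from muscle, where they hold back MEF2 targets. Hdac4 stood at 7.01, 6.97 and 6.92 with acetate, propionate and butyrate and at 7.03 in control. Control was the highest and butyrate the lowest, with a log2 ratio of -0.11. Hdac5 stood at 7.05, 7.08 and 6.96 with acetate, propionate and butyrate and at 6.94 in control, so its acetate and propionate ratios of 0.11 and 0.14 were the larger ones and its butyrate ratio was 0.016. Skeletal muscle markers differed far more in the butyrate pool. With butyrate all 12 lay 1.2-fold or more below control and 11 of them 1.5-fold or more. Of all 18820 genes, 1030 and 116 were as much below control with butyrate. The median log2 ratios of the muscle list were -0.080, 0.18 and -2.04 with acetate, propionate and butyrate. The part of muscle RNA in the ratios of Hdac4, Hdac5 and Hdac9 was not tested.

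Hdac7, the class IIa enzyme of endothelium and thymocytes, stood at 6.47, 6.56 and 6.45 with acetate, propionate and butyrate and at 6.55 in control. Its values fell into pairs, acetate with butyrate and propionate with control, and its range of 0.11 was matched or passed by 88.9% of 2244 genes of like level. Endothelial markers had medians of 0.0023, 0.0075 and -0.0024 with acetate, propionate and butyrate over 12 genes.

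Both class IIb members lay below control with acetate and propionate. Hdac6, a deacetylase of tubulin and other cytoplasmic proteins, stood at 7.12, 7.23 and 7.38 with acetate, propionate and butyrate and at 7.37 in control. Its acetate ratio of -0.25 (1.19-fold lower) was the largest negative one among the members and lay just short of 1.2-fold, and its butyrate ratio was 0.0052. Hdac10, a polyamine deacetylase, stood at 6.19, 6.25 and 6.42 with acetate, propionate and butyrate and at 6.31 in control. The acetate pool was again the lowest and the butyrate pool the highest, with log2 ratios of -0.12, -0.060 and 0.11. Among genes of like level, 32.1% of 2347 had a range at least that of Hdac6 and 53.5% of 2182 at least that of Hdac10.

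The acids differ in the length of their carbon chain and were given at the same concentration, rate and time, so their pools could be set side by side in 3 pairs. No test of these differences can be made with 1 pool each, and no interval of a difference can be given. Propionate over acetate reached 1.2-fold in 0 of 10 members, against 9.58% of all genes. Butyrate over acetate reached it in 1 of 10, Hdac9, against 14.6% of all genes. Hdac9 lay just past that fold, with a log2 ratio of 0.265 against the 0.263 that makes 1.2-fold. Hdac6 and Hdac2 lay just short of it in the same pair, both with a log2 ratio of 0.255. Butyrate over propionate reached it in 1 of 10, again Hdac9, with 0.35, against 13.6% of all genes. At 1.5-fold no member was found in any of these pairs, and 0.595%, 1.87% and 1.27% of all genes were, for propionate over acetate, butyrate over acetate and butyrate over propionate.

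The acetate pool gave the lowest value of 5 members (Hdac1, Hdac2, Hdac3, Hdac6 and Hdac10) and the highest of 0, against 22.7% and 25.9% of all genes. The highest value of 4 members each lay in the propionate pool and the butyrate pool, which held that of 22.7% and 26.2% of all genes. Levels were ordered acetate, propionate, butyrate from low to high in 3 members (Hdac2, Hdac6 and Hdac10), against 17.4% of all genes, and from high to low in 2 (Hdac4 and Hdac8), against 19.0% of all genes. In Hdac8 the log2 ratio of propionate over acetate was -0.00028, and with cyclic loess or median centring that order turned (0.018 and 0.0028). Below control with all 3 acids were 2 members, Hdac4 and Hdac8, as were 25.3% of all genes. Above control with all 3 were 2 members, Hdac5 and Hdac9, as were 23.9% of all genes. With cyclic loess the acetate ratio of Hdac4 to control turned to 0.0011 and the propionate ratio of Hdac9 to -0.0089. Hdac4 and Hdac9 then left these groups.

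**Figure D3:**
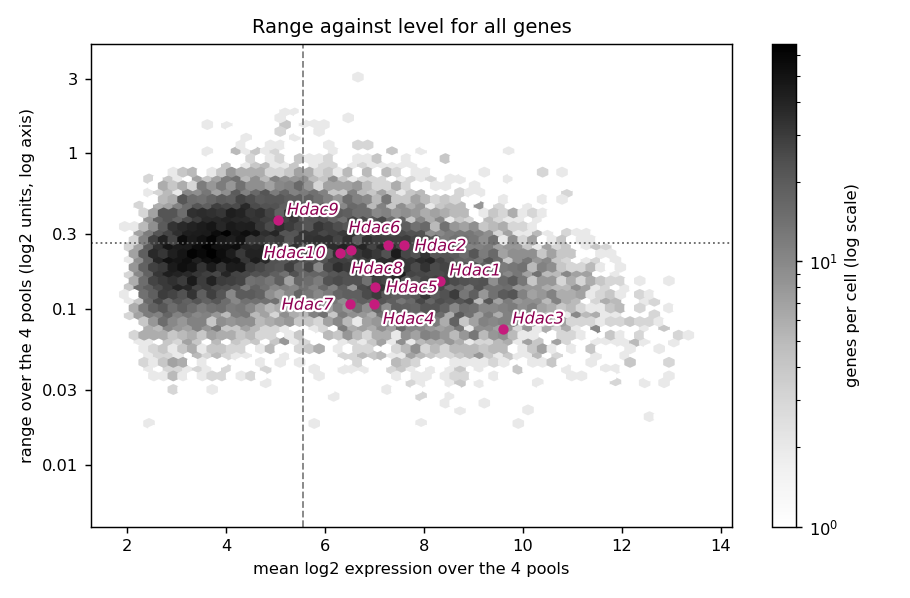
Range over the 4 pools (highest minus lowest log2 value, logarithmic axis) against the mean log2 level for 18820 genes, shaded by number of genes, with the 10 members as points, a dashed line at 5.55 and a dotted line at 1.2-fold. The members lie within the cloud of genes of their own level, from 0.074 for Hdac3 to 0.37 for Hdac9.

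The median range over the 4 pools was 0.19 for the 10 members and 0.21 for all 18820 genes. Without the butyrate pool, a view added after the data had been seen, the range of Hdac9 was 0.11 and the median of the members 0.13. The pattern of Hdac9 over the 4 pools was set against 2635 genes with a level of at least 5.55 and a range of at least 0.26. The highest Pearson correlations, over 4 points only, were those of Cops5 (0.999), the interferon-induced Ifit3 (0.999), Gm8995 (0.998), the macrophage chemokine Ccl6 (0.998) and Depp1 (0.998). With so few points 65 of these genes reached 0.95, so the likeness says little.

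Markers of several other tissues and cell types were high in the butyrate pool, in which Hdac9 was high. Among intestinal epithelium markers, 2 of 10 were at least 1.2-fold above control with acetate, 3 with propionate and 7 with butyrate. Among the 5 of them with mean levels of at least 5.55 the counts were 1, 1 and 4. Of all 18820 genes, 1267, 1427 and 1204 were as much above control with these acids. The medians of the intestinal list were 0.11, -0.012 and 0.34 with acetate, propionate and butyrate. Muc2, the main secreted mucin of goblet cells, stood at 5.22, 4.92 and 8.11 with acetate, propionate and butyrate and at 5.13 in control. Lypd8, a protein of the colon surface, stood at 5.77, 5.48 and 8.61 with the same acids and at 5.64 in control. In both, the butyrate pool alone was high, with log2 ratios to control of 2.98 and 2.97. Of 4 red cell markers measured, Car1, a carbonic anhydrase also made in colon, and Slc4a1, the anion exchanger of the red cell membrane, had butyrate ratios of 1.90 and 1.34, and the list medians were -0.14, 0.13 and 0.74 with acetate, propionate and butyrate. Kupffer cell markers, of the liver's macrophages, were at least 1.2-fold above control in 2 of 14 cases with acetate, 8 with propionate and 12 with butyrate. Their median log2 ratios were -0.058, 0.30 and 0.57 with these acids. Neutrophil and monocyte markers had medians of -0.39, -0.18 and 0.52 with acetate, propionate and butyrate over 11 genes. Over the 5 of them with mean levels of at least 5.55 the medians were -0.39, 0.20 and 0.69, so that the sign with propionate turned. Lymphocyte markers had medians of -0.036, 0.12 and 0.14 over 13, of which 2 had mean levels of at least 5.55. In pooled whole tissue, a different number of cells and a different amount of RNA per cell cannot be told apart. The part of these tissues and cells in the Hdac9 value was not tested. Hepatocyte markers differed by little, with medians of -0.0097, 0.0014 and 0.0079 over 9 genes.

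The deacetylases outside classes I and II varied as little. Hdac11, the one class IV enzyme, stood at 7.25, 7.32 and 7.15 with acetate, propionate and butyrate and at 7.25 in control. None of the 7 sirtuins, the NAD-dependent class III, was 1.2-fold from control with any acid. Of all 18820 genes, 12.2%, 13.3% and 11.9% were so with acetate, propionate and butyrate. Sirt6, a nuclear sirtuin, had the lowest ratio of the family with butyrate (-0.19), Sirt5, a mitochondrial desuccinylase, the lowest with propionate (-0.18), and Sirt4 the highest with propionate (0.15).

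Subunits of the corepressor complexes that hold Hdac1, Hdac2 and Hdac3 gave the same picture, with Sap18 as the exception. Of 14 measured Sin3 subunits, 1 was at least 1.2-fold below control with acetate, 1 with propionate and 0 with butyrate, and their medians were -0.028, -0.091 and -0.063. Sap18 stood at 7.15, 6.996 and 7.39 with acetate, propionate and butyrate and at 7.42 in control, with ratios of -0.27 and -0.42 for acetate and propionate. Of 14 Sin3 subunits, all with mean levels of at least 5.55, 12 lay below control with propionate and 12 with butyrate, as did 60.8% and 51.3% of all genes at or above that level. None of 11 NuRD, 6 CoREST, 3 NCoR and 3 MiDAC subunits reached 1.2-fold with any acid. Of all 18820 genes, 12.2%, 13.3% and 11.9% reached it either way with acetate, propionate and butyrate, so lists this short would hold few or none. The medians of the NuRD list were 0.069, 0.0076 and -0.050 with acetate, propionate and butyrate. The largest CoREST ratio with acetate was that of the demethylase Kdm1a (0.22), and the largest of NCoR was that of Tbl1x (0.21).

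Of the partners of the class IIa enzymes, 2 of 18 were at least 1.2-fold above control with acetate and 0 as much below. Of all 18820 genes, 1267 were as much above and 1032 as much below with acetate. The list held MEF2 factors, the kinases that send these enzymes out of the nucleus, the 14-3-3 proteins that hold them in the cytoplasm, and their target FOXO factors. Whatever the size of the difference, 15 of the 18 lay above control with acetate, 12 with propionate and 11 with butyrate. Of all genes, 50.5%, 47.8% and 49.0% did so. Of genes with mean levels of at least 5.55, as 17 of the 18 had, 46.2%, 39.2% and 48.7% did so. The medians of the partner list were 0.099, 0.060 and 0.021. Past 1.2-fold with acetate were Sik1, a salt-inducible kinase of class IIa enzymes (9.38 against 8.94 in control), and Ywhah, a 14-3-3 protein (9.43 against 9.01). With butyrate Mef2c was lower (5.78 against 6.06 in control), a factor also abundant in muscle.

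**Figure D4:**
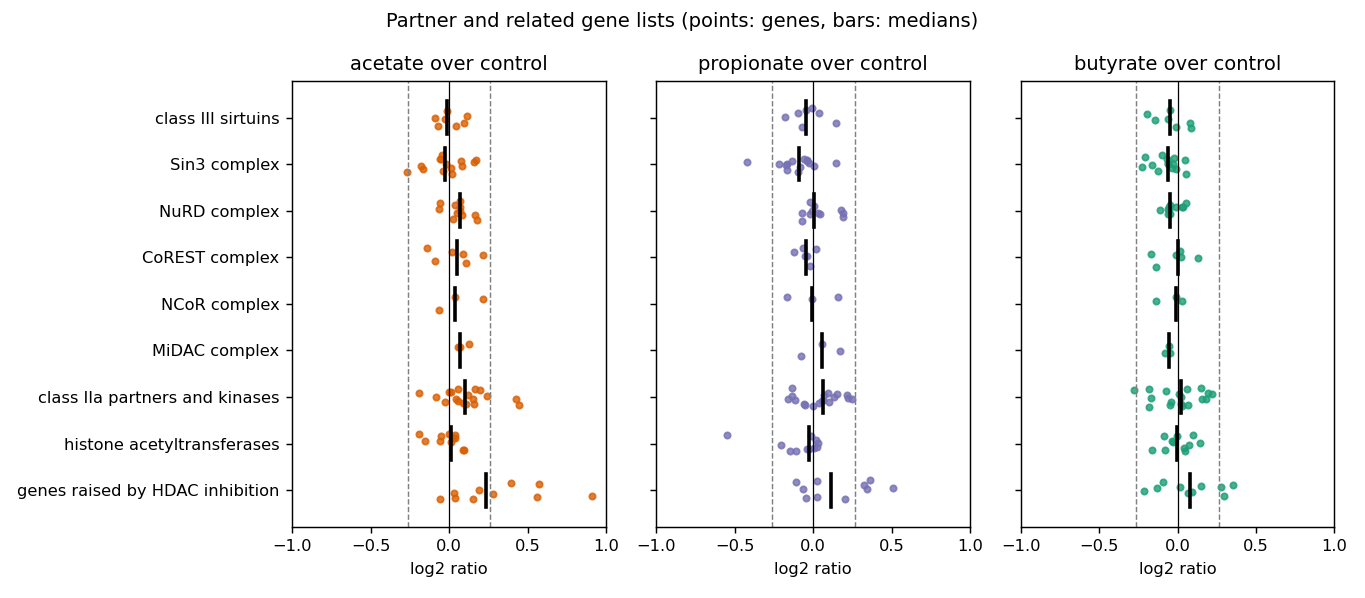
Log2 ratios to control of genes in lists related to the deacetylases, in 3 panels for acetate, propionate and butyrate. Each point is a gene, thick bars are list medians and dashed lines mark 1.2-fold. The complexes cluster around 0, and the list raised by inhibition has its highest point, Klf6, at 0.91 with acetate.

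Histone acetyltransferases, which add the groups that deacetylases remove, had medians of 0.012, -0.027 and -0.0063 with acetate, propionate and butyrate over 11 genes. Kat6b stood apart from the rest with propionate, at 6.36 against 6.91 in control (log2 ratio -0.55), and was at 6.72 with acetate and 6.75 with butyrate. No other member of this list was 1.2-fold from control with any acid. Of all 18820 genes, 12.2%, 13.3% and 11.9% were so with acetate, propionate and butyrate.

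Genes known to go up when deacetylases are inhibited had a larger median ratio with acetate than with butyrate. Of 10 measured, 5 were at least 1.2-fold above control with acetate, 4 with propionate and 3 with butyrate, and 0 were as much below. Of all 18820 genes, 1267, 1427 and 1204 were as much above control with these acids. The medians of the list were 0.23, 0.11 and 0.080. Klf6, a zinc finger factor, stood at 7.30, 6.90 and 6.74 with acetate, propionate and butyrate and at 6.39 in control. Cdkn1a, the cell cycle inhibitor p21, stood at 9.06, 8.85 and 8.36 with the same acids and at 8.49 in control. Both fell into the order acetate, propionate, butyrate from high to low, and Cdkn1a with butyrate lay below control. The linker histone H1f2 ran otherwise, at 9.24, 9.55 and 9.51 with acetate, propionate and butyrate and at 9.21 in control. Stellate cell and adipocyte markers followed the same order of medians. Kupffer cell, neutrophil and monocyte, lymphocyte and red cell markers ran in the reverse order, and endothelial and muscle markers in neither. Stellate cell and fibroblast markers had 8 of 12 genes at least 1.2-fold above control with acetate, 6 with propionate and 1 with butyrate, with medians of 0.44, 0.25 and 0.094, and the matrix gene Dpt reached 1.07 with acetate. All 7 adipocyte markers measured had medians of 0.17, -0.082 and -0.21 with acetate, propionate and butyrate. The 3 with mean levels of at least 5.55 had 0.55, 0.020 and -0.19. Below that level, Adipoq, Retn, Plin1 and Lep had acetate ratios of -0.15, 0.015, -0.034 and 0.19, so the list did not rise as a whole with acetate. The list raised by inhibition was chosen with results of these data known, and several of its genes also answer to stress, glucocorticoids or growth signals. The part of these signals and of the other cells in the values was not tested.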

How the data were processed

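Liver RNA of 4 infusion groups (acetate, propionate, butyrate and control) was measured on 1 array each. Per the labels' protocols, 500 ng of RNA per mouse was pooled within a group. The authors deposited log2 values of probe sets that RMA had produced, per the submitters' processing notes (its version: not given in the sources used here). RMA makes the arrays' distributions alike (medians 5.11 to 5.12), so a shift common to all genes is hidden. The number of arrays limits the precision.

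Names of probe sets came from GEO's annotation of the platform. Of 35556, 21218 had 1 symbol, 1881 had several and 12457 had none, and 21185 matched RefSeq (GRCm38.p6, used for names and promoters) by Entrez ID. Probe sets of a symbol were averaged. Each comparison was the log2 difference of 2 arrays, with 1.2-fold counted as a difference and 1.5-fold given beside it. Over 9410 genes at or above 5.55, Pearson's r between arrays ran from 0.990 to 0.996 (genes are not replicates). The counting was run on simulated data whose shifts were far larger than their scatter. That checks the code alone and says nothing of ratios near 1.2-fold. Named are all 10 members, the other deacetylases, and the members of each list with the largest ratios at or above 5.55. The deacetylases and lists were chosen with earlier results of these data known. Alternatives were cyclic loess (limma 3.58.1), median centring, the brightest probe set, probe sets with several symbols, the mean of the other 3 pools, the level floor and other folds. Listed genes without a probe set of 1 symbol were not analysed here.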

Additional observations from a re-analysis of the deposited data

How the results depend on the processing

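No paired analysis was possible because each group is 1 pool. Averaging in probe sets with several symbols moved none of the 60 member ratios, so it was no check of them. Cyclic loess, median centring and the brightest probe set, which bears on Hdac1 alone, left every count of members past 1.2-fold as it was, as did the mean of the other 3 pools for the comparisons with control. The median log2 ratios moved by at most 0.030 under all alternatives. Single ratios moved by at most 0.042 with cyclic loess, 0.011 with median centring and 0.16 against the mean of the other 3 pools, and the signs that turned (4 of 60, 1 of 60 and 4 of 30) belonged to ratios under 1.2-fold. Without members below the floor, or at 1.5-fold, the counts were 0 for butyrate against control, acetate and propionate, where Hdac9 had been the 1 member. At 1.1-fold the counts were 3, 3 and 2 for acetate, propionate and butyrate against control. Between acids they were 2 for propionate against acetate, 4 for butyrate against acetate and 3 for butyrate against propionate. The share of all genes past 1.1-fold was not computed, so these counts cannot be read as a result about the members. The median range of the members was 0.19 to 0.20 with cyclic loess, median centring or the brightest probe set and 0.13 without the butyrate pool, checks added after the data had been seen. Ratios of members near the floor, Hdac9 above all, are limited by their low signal.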
